A study of Mus musculus with 10 samples.

Results

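The genes described here hold epithelial cells together and keep their identity: the claudins and their tight junction partners, E-cadherin, EpCAM, polarity and sorting proteins, membrane proteases with their inhibitors, and the splicing and transcription factors that maintain the epithelial state. They were chosen by name. Every gene whose single symbol in the platform's annotation starts with Cldn was taken, Cldn5 left out, together with a list of 27 further genes, which gave 59 genes (32 claudin-named and 27 listed) of the 22180 genes with a named probe set. Where a gene had several probe sets, the brightest on average stood for it. The 32 claudin-named genes include Cldnd1 and Cldnd2, which are claudin-domain genes, and Cldn34-ps, named as a pseudogene.

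RNA came from the nasal respiratory epithelium of mouse embryos at E16.5 (the embryonic day), cut by laser capture from formalin-fixed, paraffin-embedded sections and measured on Affymetrix whole-transcript arrays. WT embryos (5 arrays, 4 females and 1 male, WT 3) were wild-type. TKO embryos (5 arrays, 2 females and 3 males) were homozygous for deletions of 3 loci, miR-34a-/-, then miR-34b/c-/-, and also miR-449a/b/c-/-, which together make up the miR-34 and miR-449 family. The labels give no litter, strain or cell type restriction of the deletions, and p-values measure the spread between these embryos, some of which may share a litter.

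A tight junction is a belt of membrane proteins near the apical surface of neighbouring epithelial cells. Claudins form its strands and decide which ions pass between the cells, occludin and tricellulin seal contacts, and cytoplasmic plaque proteins such as ZO-1 tie the strands to actin. Below it lies the E-cadherin adhesion belt, and the position of both is set by the Par and Crumbs polarity complexes. Grainyhead-like, Ovo-like and Ets factors switch such genes on or protect them from repressors such as Snail and Zeb, which bind CACCTG sites. The microRNAs of this family are abundant in multiciliated cells, the cells whose beating cilia move mucus over the respiratory surface.

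The deleted microRNAs share the seed, bases 2 to 8 of the mature strand, through which a microRNA recognises its targets. The mature sequences below, from RefSeq (GRCm38.p6), are shown because they define what the TKO epithelium lacked, and the seed is in capitals. miR-34a-5p lies at chr4:150068473-150068494 on the plus strand, miR-34b-5p at chr9:51103610-51103632 on the minus strand, miR-449a-5p at chr13:113037549-113037570 on the plus strand and miR-449c-5p at chr13:113036008-113036028 on the plus strand. All 4 carry the same seed and differ after it. miR-34c and miR-449b are the other family members.

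mmu-miR-34a-5p: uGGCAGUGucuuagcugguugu
mmu-miR-34b-5p: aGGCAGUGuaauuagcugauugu
mmu-miR-449a-5p: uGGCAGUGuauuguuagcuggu
mmu-miR-449c-5p: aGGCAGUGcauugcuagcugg

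Values are deposited log2 expression values. A difference is TKO minus WT from a limma fit with labelled sex in the model, unless another setting is named. It can depart from the difference of the plain means, also in sign. For Grhl1 it was 0.058, while the plain means differed by -0.12. The Mir449c probe set averaged 7.26 in WT and 3.67 in TKO, the Mir449a probe set 7.20 and 5.41, and neither overlapped between genotypes. The Mir34b probe set averaged 5.76 in WT and 5.49 in TKO and read lower in every TKO array than in any WT array. Its difference of -0.28 did not pass the threshold (adjusted p = 0.129 in limma). The probe sets of Mir34a and Mir34c lay below the intensity filter. Pairs of arrays correlated at 0.975 to 0.989 over all probe sets. The captured tissue carried the epithelial keratins Krt8 and Krt18 at a similar level in both genotypes. Krt8 lay between 11.48 and 11.69 and Krt18 between 10.98 and 11.22 in all 10 arrays. Other epithelial identity genes, some of which differed more, are given below.

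The comparison asks what the loss of the family did to junction and identity genes in this epithelium. Most showed little difference. Of the 59 genes, 50 had a mean above the filter (log2 4.58, the 25th percentile of all genes) and were tested, each with both genotype means above it. Of these, 1 was higher in TKO (Ovol2) and 1 was lower (Cldn22) at an adjusted p under 0.05 in limma, over 16635 genes. That is 2% of the tested members in each direction, where 4.39% of all tested genes were called higher and 1.12% lower, 5.51% in all. At an unadjusted p under 0.05 there were 11 members, 22%, beside 20.9% of all genes.

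The changes were small in size. The median difference over the 50 members was -0.061, beside -0.00052 over all tested genes. There were 31 members with a negative and 19 with a positive difference, beside 8344 and 8291 genes. In 40 of the 50 (80%) the difference was smaller than 0.25 in size, as it was in 80.9% of all genes. For 39 of the 50 the 95% interval lay within 0.5 of zero on both sides, beside 13073 of all 16635 tested genes. The median was -0.066 for the 23 claudin-named genes and -0.057 for the other 27. In bulk RNA from captured tissue, fewer cells of a type and less RNA per cell cannot be told apart.

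**Figure D1:**
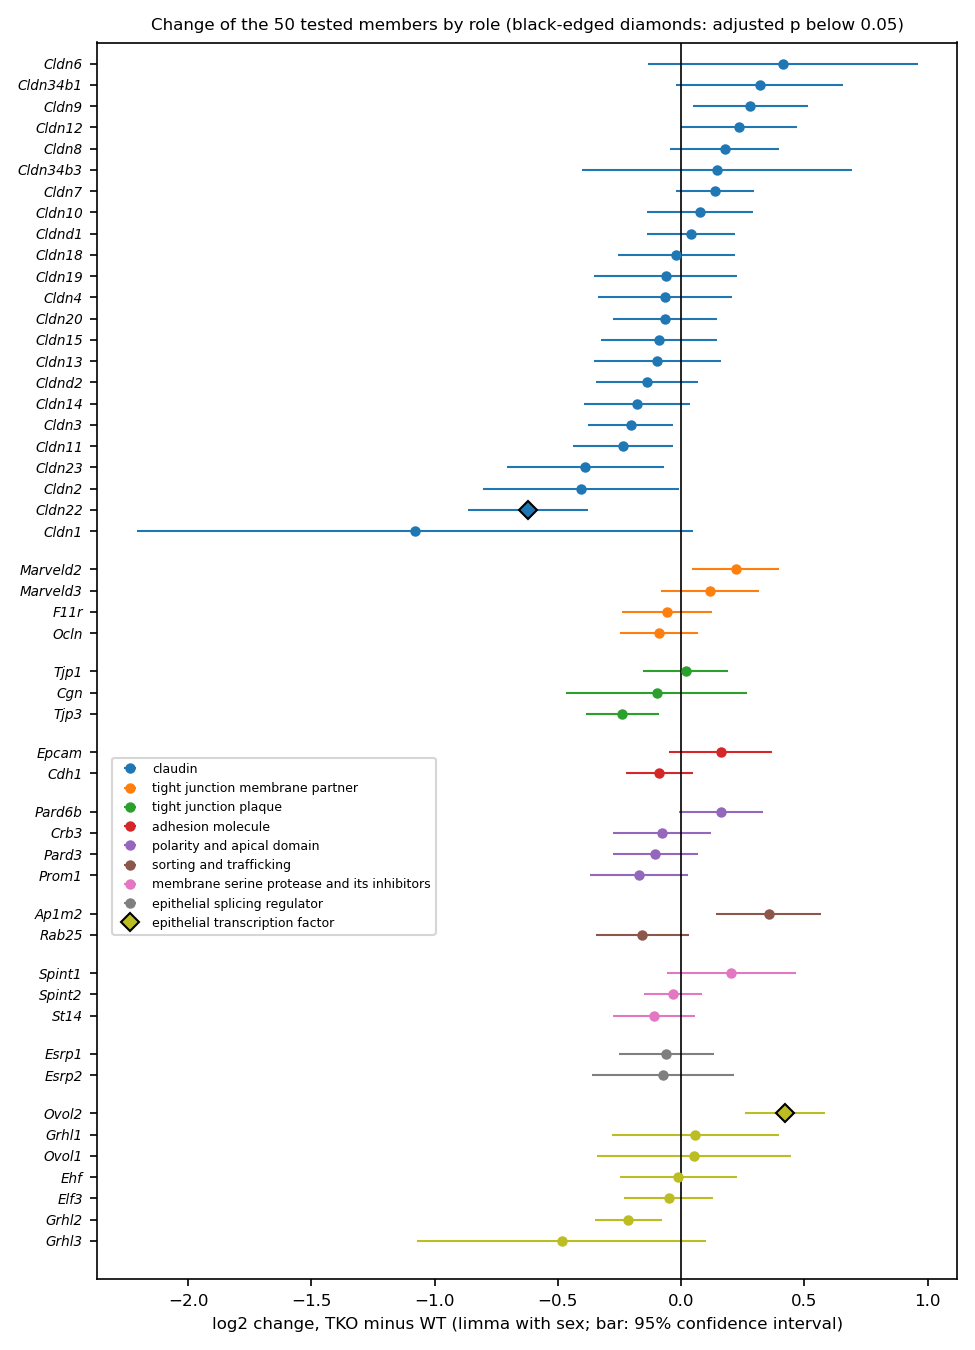
TKO minus WT difference (log2, horizontal axis) of each of the 50 tested junction and identity genes, grouped by role. Differences and 95% intervals (lines) are from limma with sex in the model, and black-edged diamonds are genes past the threshold. Ovol2 (0.42) and Cldn22 (-0.62) passed an adjusted p of 0.05, and Cldn1 had the widest interval.

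Groups whose arrays did not overlap were found in 6 members, 12% of those tested, beside 7.6% of all genes. Ovol2 had every TKO array above every WT array (1 of 50, 2%, beside 5.54%). Cldn22, Cldn23, Tjp3, Grhl2 and Pard3 had every TKO array below every WT array (5 of 50, 10%, beside 2.07%). Arrays that do not overlap always give the smallest p of the exact two-sided permutation test of 5 against 5 arrays, 0.00794, with no adjustment for the number of genes. For these 6 that p therefore restates the lack of overlap and is no further support. The count of genes called in the whole comparison rests in part on single arrays: it was 916 with all arrays, 307 without TKO 3 and 552 without TKO 1. It was 210 without WT 3, the only WT male. With sex in the model, the genotype difference of that fit comes from the females alone. Every difference given below without WT 3 is therefore the same as in females only, and these settings are not separate checks.

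**Figure D2:**
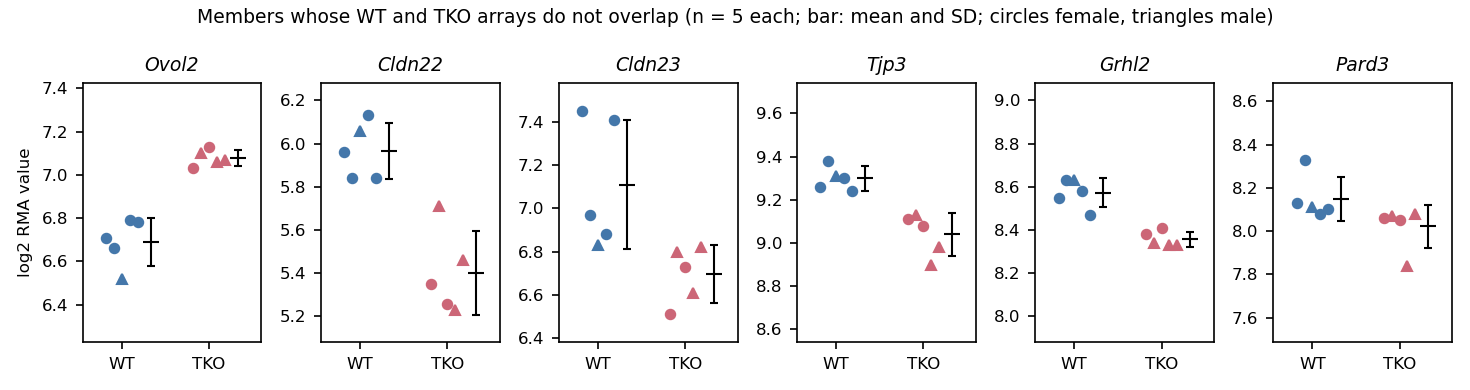
Log2 expression (vertical axis) in each of the 5 WT and 5 TKO arrays for the 6 members whose genotypes did not overlap; points are arrays (circles female, triangles male) and the bar is the mean and SD of the genotype. Ovol2 sits higher in TKO, and Cldn22, Cldn23, Tjp3, Grhl2 and Pard3 sit lower.

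Among the claudins, Cldn22 was the one that passed the test. It read 5.96, 5.84, 6.06, 6.13 and 5.84 in WT 1 to 5 and 5.35, 5.71, 5.26, 5.23 and 5.46 in TKO 1 to 5. The highest TKO array, TKO 2, stayed below the lowest WT arrays. The mean fell from 5.97 ± 0.13 to 5.40 ± 0.19 (SD, n = 5 each), a difference of plain means of -0.56. With sex in the model the difference was -0.62 (SE 0.11) or 1.54-fold, with an adjusted p of 0.00861 in limma. The call was lost without WT 3 (-0.64, adjusted p = 0.067 in limma), without TKO 3 (-0.59, 0.0536), in females only (-0.64, 0.0852) and with the non-epithelial score described below in the model (-0.55, 0.166), while the size of the difference changed little. It was called in 17 of the 21 alternative settings in which it was tested.

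Cldn22 is a claudin gene whose neighbours in the RefSeq order are Cldn24, which lay below the filter, and Wwc2, a WW and C2 domain gene on the opposite strand, converging with it. Wwc2 was named after its values were seen. It read 7.47, 7.30, 7.52, 7.40 and 7.63 in WT 1 to 5 and 7.85, 7.96, 7.83, 7.84 and 7.74 in TKO 1 to 5, with no overlap. The difference was 0.37 (adjusted p = 0.0255 in limma), opposite in direction to that of Cldn22. Whether probes of either gene read RNA of the other was not tested.

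Cldn23, a claudin of differentiated epithelia, read 7.45, 6.97, 6.83, 6.88 and 7.41 in WT 1 to 5 and 6.51, 6.80, 6.73, 6.61 and 6.82 in TKO 1 to 5. The groups were adjacent without overlapping, since WT 3 (6.83) lay just above TKO 5 (6.82). WT 1 and WT 5 stood above the other WT arrays. The difference of -0.39 (SE 0.15) did not pass the test (adjusted p = 0.150 in limma).

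Cldn1, the claudin without which the skin barrier leaks, varied most. It read 5.27, 8.35, 5.93, 7.29 and 5.93 in WT 1 to 5 and 5.81, 4.76, 5.08, 5.55 and 5.24 in TKO 1 to 5. WT 2 and WT 4 stood far above the remaining arrays, and the other WT arrays lay within or near the TKO range. The difference was -1.08 with an SE of 0.52, the largest in size among the members, and did not pass the test (adjusted p = 0.261 in limma). It ranged from -1.77 with the non-epithelial score in the model to -0.731 without WT 2.

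The array pattern of Cldn1 moved with that of Krt10, a keratin of cornifying layers, which was chosen after its values were seen. Krt10 read 8.98, 12.35, 10.88, 12.15 and 11.12 in WT 1 to 5 and 11.38, 7.71, 7.86, 10.34 and 8.47 in TKO 1 to 5. The arrays highest in Cldn1 in each genotype, WT 2, WT 4 and TKO 1, were also the highest in Krt10. The part of squamous epithelium in the Cldn1 difference was not tested.

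Cldn2, which forms cation pores in leaky epithelia, read 5.54, 5.77, 6.19, 5.56 and 5.02 in WT 1 to 5 and 5.42, 5.27, 5.26, 5.49 and 5.09 in TKO 1 to 5. WT 3 was the highest array and WT 5 the lowest, so that the WT range enclosed the TKO range. The difference was -0.41 (SE 0.18, adjusted p = 0.229 in limma). It was -0.13 (adjusted p = 0.799) without WT 3 and -0.13 (0.806) in females only, and -0.52 (0.0493) without WT 5.

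Cldn3, Cldn4 and Cldn7 are claudins common to most simple epithelia, and they did not differ past the threshold. Cldn3 read 9.52, 9.41, 9.48, 9.49 and 9.27 in WT 1 to 5 and 9.30, 9.11, 9.35, 9.02 and 9.15 in TKO 1 to 5. WT 5 alone fell among the TKO arrays, and the difference was -0.20 (SE 0.079, adjusted p = 0.164 in limma), or -0.098 (0.642) without WT 3. Cldn4 read 8.89, 8.78, 8.46, 8.55 and 8.54 in WT 1 to 5 and 8.43, 8.63, 8.50, 8.46 and 8.94 in TKO 1 to 5. Its groups overlapped across nearly their whole ranges, with a difference of -0.066 (95% interval -0.34 to 0.20), or -0.22 without WT 3. Cldn7 read 7.87, 7.67, 7.74, 7.76 and 7.90 in WT 1 to 5 and 7.86, 7.93, 8.01, 7.91 and 7.82 in TKO 1 to 5. Its difference was 0.14 (95% interval -0.022 to 0.30), or 0.082 after quantile normalization, with 3 TKO arrays above every WT array.

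Cldn6, a claudin of embryonic epithelia, had a larger positive difference than most and a wide spread. It read 8.17, 7.15, 6.59, 7.23 and 8.35 in WT 1 to 5 and 8.11, 7.33, 7.82, 7.05 and 7.56 in TKO 1 to 5. The genotypes overlapped throughout. The difference was 0.41 (SE 0.25, adjusted p = 0.384 in limma) with sex in the model, 0.075 without it and 0.24 without WT 3. The summed level of 9 olfactory neuron markers was highest in WT 5 (11.59), TKO 1 (10.79), WT 1 (10.71) and TKO 3 (10.14), which were also the 4 arrays highest in Cldn6. Its part in the difference was not tested.

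**Figure D3:**
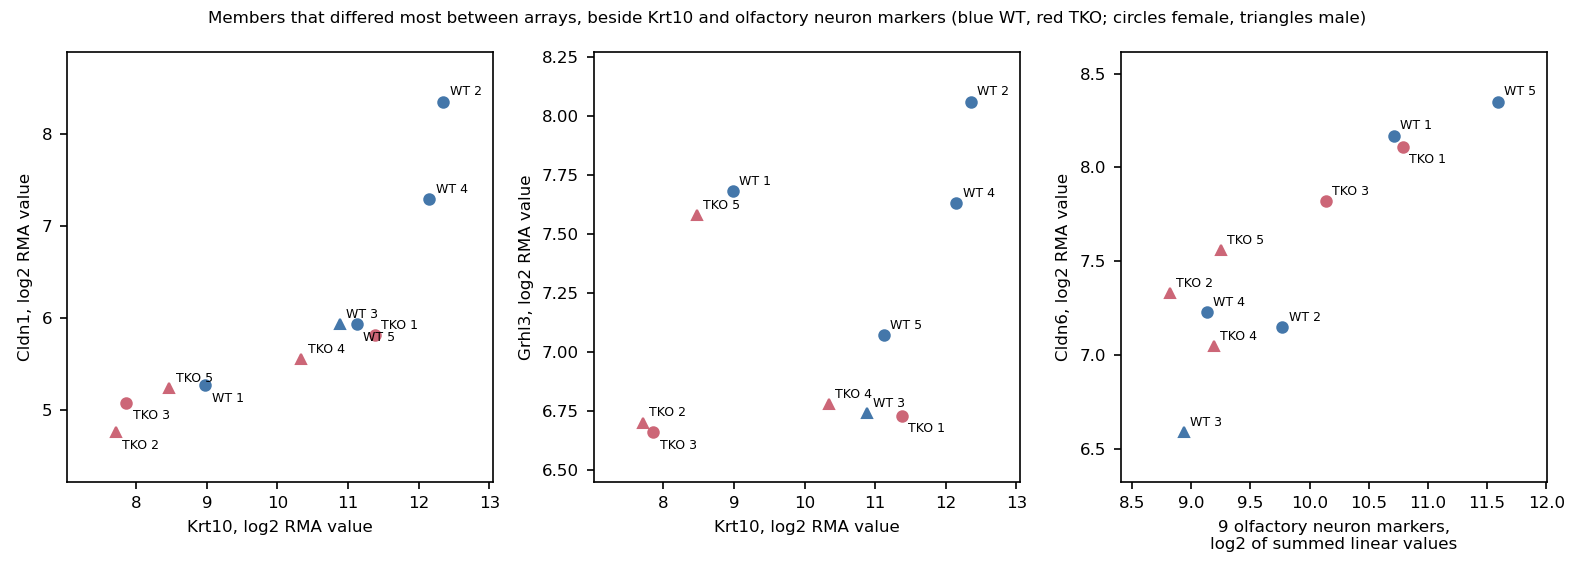
Log2 value of Cldn1 (left) and Grhl3 (middle) against that of Krt10, and of Cldn6 against the summed level of 9 olfactory neuron markers (right), with 1 point per array (blue WT, red TKO, circles female, triangles male). WT 2 and WT 4 stand high in both Cldn1 and Krt10, WT 1 and TKO 5 are high in Grhl3 with a low Krt10, and WT 5, WT 1, TKO 1 and TKO 3 stand high on both axes of the right panel.

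Cldn34b1, one of 8 Cldn34 genes among the members, read 5.82, 5.55, 5.49, 5.84 and 5.48 in WT 1 to 5 and 5.84, 5.55, 6.02, 6.36 and 5.83 in TKO 1 to 5. TKO 4 was the highest and TKO 2 lay among the lower WT arrays. The difference of 0.32 (SE 0.16) did not pass the test (adjusted p = 0.271 in limma), and was 0.53 (0.292) with the non-epithelial score in the model. Cldn34 genes resemble one another, and how the probes separate them was not tested.

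The remaining claudin-named genes that were tested had differences between -0.24 (Cldn11, adjusted p = 0.173 in limma) and 0.28 (Cldn9, 0.156). Cldn12 had a difference of 0.23 (adjusted p = 0.239). Cldn18, a claudin of lung and stomach, had one of -0.019, and Cldn10 and Cldn8 had 0.076 and 0.18. Among the claudins that lie side by side in the genome, Cldn6 and Cldn9 had differences of 0.41 and 0.28, and Cldn3 and Cldn4 had -0.20 and -0.066. A further 9 claudin-named genes lay below the filter (Cldn16, Cldn17, Cldn24, Cldn34-ps, Cldn34a, Cldn34b2, Cldn34b4, Cldn34c4 and Cldn34d). Their array values ran from 2.23 to 4.51 and overlapped between genotypes in each of the 9, with exact two-sided permutation p-values of 0.175 or more.

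Claudin strands are joined in the membrane by occludin, by the MARVEL proteins and by the junctional adhesion molecule F11r. None of these 4 passed the test in limma, with 1 at an unadjusted p under 0.05. Marveld2, which encodes tricellulin, the protein of contacts between several cells, read 6.88, 6.87, 6.51, 6.76 and 7.00 in WT 1 to 5 and 7.04, 6.86, 7.01, 6.79 and 6.95 in TKO 1 to 5. WT 3 was the lowest array. The difference was 0.22 (SE 0.082, adjusted p = 0.145 in limma), or 0.14 (0.528) without WT 3, which is the difference among the females. Marveld3, a related strand protein, read 6.32, 6.21, 6.36, 6.27 and 6.27 in WT 1 to 5 and 6.51, 6.44, 6.32, 6.59 and 6.24 in TKO 1 to 5. Its TKO 3 and TKO 5 arrays lay within the WT range, and the difference was 0.12 (95% interval -0.081 to 0.32), or 0.059 without TKO 1. Occludin, whose gene neighbours Marveld2, had a difference of -0.089, and F11r one of -0.057.

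On the cytoplasmic side, Tjp3 separated the genotypes while Tjp1 and Cgn did not. Tjp3 encodes ZO-3, a scaffold that binds claudin tails. It read 9.26, 9.38, 9.31, 9.30 and 9.24 in WT 1 to 5 and 9.11, 9.13, 9.08, 8.90 and 8.98 in TKO 1 to 5. Every TKO array lay below the lowest WT array, WT 5. The difference was -0.24 (SE 0.067), or 1.18-fold, with an adjusted p of 0.0631 in limma. It passed in 3 of 22 settings, without sex in the model (-0.26, 0.0248), after quantile normalization (-0.28, 0.0145) and after median centring (-0.25, 0.0496). The adjusted p was largest without WT 3 (-0.20, 0.304), and was 0.298 in females only, 0.172 without TKO 3 and 0.166 with the non-epithelial score in the model.

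Cgn encodes cingulin, which links the plaque to myosin and to RhoA regulation. It read 7.95, 7.44, 7.71, 7.54 and 7.55 in WT 1 to 5 and 7.89, 7.78, 7.31, 7.07 and 7.58 in TKO 1 to 5. TKO 4 and TKO 3 were its lowest arrays, the rest overlapped, and the difference was -0.098 (95% interval -0.46 to 0.27), which became 0.024 without TKO 3. Tjp1, which encodes ZO-1, had a difference of 0.018 (95% interval -0.15 to 0.19).

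The adhesion molecules that define epithelium were close to level. Cdh1, which encodes E-cadherin, read 10.55, 10.43, 10.44, 10.42 and 10.52 in WT 1 to 5 and 10.39, 10.47, 10.32, 10.32 and 10.49 in TKO 1 to 5. Its difference was -0.088 (95% interval -0.22 to 0.048), and its other probe set had the same direction. Epcam, a homophilic adhesion protein of simple epithelia, read 8.78, 8.53, 8.43, 8.29 and 8.69 in WT 1 to 5 and 8.71, 8.70, 8.68, 8.60 and 8.70 in TKO 1 to 5. The TKO arrays lay close together inside the WT range, and the difference was 0.16 (95% interval -0.047 to 0.37), or 0.095 after quantile normalization.

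Of the 4 polarity and apical genes none passed the test in limma, nor reached an unadjusted p under 0.05. Pard3, the Par complex scaffold at the apical junction, read 8.13, 8.33, 8.11, 8.08 and 8.10 in WT 1 to 5 and 8.06, 8.07, 8.05, 7.84 and 8.08 in TKO 1 to 5. The genotypes did not overlap, but WT 4 and TKO 5 met at 8.08, and the difference was -0.10 (SE 0.079, adjusted p = 0.499 in limma). Pard6b, its partner that binds atypical protein kinase C, read 7.06, 6.80, 6.98, 6.96 and 6.86 in WT 1 to 5 and 7.17, 7.09, 7.02, 7.12 and 7.14 in TKO 1 to 5. Only WT 1 reached into the TKO range, and the difference was 0.16 (SE 0.078, adjusted p = 0.261). With the non-epithelial score in the model it was 0.28 (0.247).

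Prom1, a protein of apical membrane protrusions, read 7.98, 8.09, 8.03, 8.02 and 7.96 in WT 1 to 5 and 7.90, 7.98, 7.91, 7.71 and 7.55 in TKO 1 to 5. TKO 2 was the single TKO array inside the WT range, and TKO 5 was the lowest. The difference was -0.17 (SE 0.091, adjusted p = 0.309 in limma), or -0.11 (0.703) without WT 3. Crb3, the Crumbs protein of epithelia, had a difference of -0.076.

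A pair of genes sort membrane proteins in epithelial cells, and their differences had opposite signs. Ap1m2 encodes the mu subunit of the epithelial AP-1B adaptor, which sends proteins to the basolateral side. It read 8.18, 8.12, 7.83, 8.01 and 8.43 in WT 1 to 5 and 8.51, 8.39, 8.38, 8.23 and 8.44 in TKO 1 to 5. WT 5 alone stood as high as the TKO arrays. The difference was 0.36 (SE 0.097), or 1.28-fold, with an adjusted p of 0.0563 in limma. The adjusted p ranged from 0.011 without WT 5 (0.41) to 0.368 in females only (0.26) and passed in 5 of 22 settings. It was 0.319 without WT 3 (0.26), 0.313 with the non-epithelial score in the model (0.35) and 0.126 without sex in the model (0.28).

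Rab25, a GTPase of apical recycling, read 9.14, 9.29, 8.93, 9.12 and 9.17 in WT 1 to 5 and 8.93, 8.90, 8.88, 8.88 and 9.16 in TKO 1 to 5. TKO 5 lay with the WT arrays and WT 3 with the TKO arrays. The difference was -0.16 (SE 0.087, adjusted p = 0.333 in limma), or -0.27 (0.206) without WT 3, which is the difference among the females.

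St14 encodes matriptase, a membrane protease that matures epithelial barriers, and Spint1 and Spint2 encode its inhibitors. None of the 3 passed the test in limma or reached an unadjusted p under 0.05. St14 read 8.58, 8.46, 8.34, 8.34 and 8.30 in WT 1 to 5 and 8.34, 8.32, 8.23, 8.19 and 8.32 in TKO 1 to 5. Its ranges met between 8.30 and 8.34, and the difference was -0.11 (95% interval -0.28 to 0.054). Spint1 read 8.34, 7.99, 7.68, 7.88 and 8.13 in WT 1 to 5 and 8.18, 8.19, 8.03, 8.14 and 8.33 in TKO 1 to 5. WT 3 was its lowest array. The difference was 0.20 (SE 0.12, adjusted p = 0.368). It was 0.018 without WT 3, which is the difference among the females and not the effect of that low array alone. Spint2 was the least variable of all 50 members, lying between 10.60 and 10.76 in all 10 arrays.

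Esrp1 and Esrp2 select the epithelial splice forms of many transcripts, and neither passed the test in limma or reached an unadjusted p under 0.05. Esrp1 read 9.25, 9.23, 8.96, 8.98 and 9.14 in WT 1 to 5 and 9.06, 8.99, 8.99, 8.87 and 9.21 in TKO 1 to 5, with a difference of -0.059, or -0.13 without WT 3. Esrp2 read 8.04, 7.94, 7.49, 7.57 and 7.70 in WT 1 to 5 and 7.66, 7.63, 7.59, 7.33 and 7.88 in TKO 1 to 5, with a difference of -0.075, or -0.19 without WT 3. The arrays of both genes lay in a similar order, with WT 1 and WT 2 at the top and TKO 4 at the bottom.

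Of 7 epithelial transcription factors, Ovol2 was higher in TKO. Ovol2 encodes a zinc finger repressor that holds mesenchymal genes, Zeb1 among them, silent in epithelium. It read 6.71, 6.66, 6.52, 6.79 and 6.78 in WT 1 to 5 and 7.03, 7.10, 7.13, 7.06 and 7.07 in TKO 1 to 5. The TKO arrays lay within 0.10 of one another and all above the highest WT array. The mean rose from 6.69 ± 0.11 to 7.08 ± 0.04 (SD, n = 5 each), a difference of plain means of 0.39. With sex in the model the difference was 0.42 (SE 0.075) or 1.34-fold, with an adjusted p of 0.00848 in limma. The call was lost without WT 3 (0.34, adjusted p = 0.102 in limma), in females only (0.34, 0.17) and with the non-epithelial score in the model (0.47, 0.0835), and was kept in 19 of 22 settings.

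Grhl2, which activates Cdh1, Cldn4 and other junction genes, read 8.55, 8.63, 8.63, 8.58 and 8.47 in WT 1 to 5 and 8.38, 8.34, 8.41, 8.33 and 8.33 in TKO 1 to 5. Both genotypes were tight and did not overlap. The difference was -0.21 (SE 0.062), or 1.16-fold, with an adjusted p of 0.0702 in limma. It passed in 3 of 22 settings, without sex in the model (-0.22, 0.0349), after quantile normalization (-0.27, 0.0223) and without WT 5 (-0.24, 0.0402). The adjusted p was largest in females only (-0.17, 0.393), and was 0.348 without WT 3 (-0.17), 0.228 with the non-epithelial score in the model and 0.144 without TKO 3.

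Grhl3, the grainyhead factor of the surface barrier, read 7.68, 8.06, 6.74, 7.63 and 7.07 in WT 1 to 5 and 6.73, 6.70, 6.66, 6.78 and 7.58 in TKO 1 to 5. TKO 5 stood near the higher WT arrays, and WT 3 stood with the TKO arrays. The difference was -0.48 (SE 0.27, adjusted p = 0.333 in limma), and -0.92 without WT 3, which is the difference among the females. The other 4 factors, Grhl1, Ovol1, Elf3 and Ehf, had differences between -0.051 and 0.058.

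For the 2 called genes and for Tjp3 and Pard3, whose arrays separated and which carry the motif, the 250 bases before the transcription start are shown from RefSeq (GRCm38.p6), 5′ to 3′ on the gene's strand, with the Snail and Zeb core CACCTG (or CAGGTG, its other strand) in capitals. The Ovol2 window lies at chr2:144331363-144331612 on the minus strand and the Cldn22 window at chr8:47824232-47824481 on the plus strand. Those of Tjp3 (chr10:81291582-81291831, minus strand) and Pard3 (chr8:127299362-127299611, plus strand) follow. Tjp3 and Pard3 each have 2 windows, and the one with the most CACCTG was chosen for printing.

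Ovol2: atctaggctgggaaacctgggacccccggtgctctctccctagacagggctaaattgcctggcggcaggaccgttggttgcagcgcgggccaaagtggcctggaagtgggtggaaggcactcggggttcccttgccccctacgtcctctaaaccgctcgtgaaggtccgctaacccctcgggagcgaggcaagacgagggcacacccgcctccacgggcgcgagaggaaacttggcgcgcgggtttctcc
Cldn22: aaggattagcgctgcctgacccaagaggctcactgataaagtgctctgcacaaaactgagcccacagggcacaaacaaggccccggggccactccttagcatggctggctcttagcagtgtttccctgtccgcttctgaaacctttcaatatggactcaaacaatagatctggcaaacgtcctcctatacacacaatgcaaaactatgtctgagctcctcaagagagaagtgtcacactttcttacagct
Tjp3: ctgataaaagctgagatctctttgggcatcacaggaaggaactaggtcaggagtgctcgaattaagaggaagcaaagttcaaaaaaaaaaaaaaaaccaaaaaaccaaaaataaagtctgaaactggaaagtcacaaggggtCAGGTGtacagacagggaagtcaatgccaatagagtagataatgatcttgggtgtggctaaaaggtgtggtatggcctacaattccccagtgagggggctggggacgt
Pard3: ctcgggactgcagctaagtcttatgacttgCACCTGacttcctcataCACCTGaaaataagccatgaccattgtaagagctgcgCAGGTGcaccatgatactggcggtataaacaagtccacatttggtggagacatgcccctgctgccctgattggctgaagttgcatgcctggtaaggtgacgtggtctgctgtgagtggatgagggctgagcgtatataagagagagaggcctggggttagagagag

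The windows of the 2 called genes differ in base composition: the Ovol2 window has 65.2% GC with 20 CpG, and the Cldn22 window 49.2% with 4, beside medians of 52.0% and 6 over 27025 genes. Neither holds CACCTG. The Tjp3 window chosen for it holds it 108 bases before that start, and the Pard3 window chosen likewise holds it 3 times. At least 1 window of 18 of the 44 members in the table (40.9%) holds it on either strand, beside 19.4% of all genes, and Epcam, Ocln, Crb3, Cldn4 and Cldn7 are among them. Counted over 1 window per gene it is 14 of 44 (31.8%), beside 2888 of 17492 protein-coding genes. The median GC content of the members' windows was 55.8%. The grainyhead motif AACNGGTT, also read on both strands, occurs in 3 of the 44 (6.82%, Cgn, Prom1 and Rab25), beside 2.0% of all genes. These are counts of letters with no test.

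The members differed widely in how far their arrays scattered within a genotype. The median SD within a genotype was 0.145 for the 50 members and 0.152 for all tested genes, and 37 of the 50 had an SD under 0.2. Among all tested genes an SD of 0.196, that of Cldn4, stood at the 72.8th percentile. Grhl2 (0.054) and Cdh1 (0.071) were among the steadiest, next to Spint2 (0.045). Cldn1 (0.93), Cldn6 (0.60), Grhl3 (0.46), Cldn34b3 (0.44), Grhl1 (0.34), Cldn2 (0.32), Ovol1 (0.31) and Cgn (0.28) lay above the 90th percentile of all genes, 0.273, and Cldn1 stood at the 99.5th.

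Arrays also differed in how many members they held above the mean of their genotype. Of the 50, 35 lay above it in WT 1 and 16 in WT 3, and 30 in TKO 2 and 15 in TKO 4, with 20 to 29 in the remaining arrays. The non-epithelial score described below was 0.215 in WT 1 and 0.387 in WT 3, the highest of the WT arrays, and -0.00151 in TKO 2 and 0.18 in TKO 4. Its part in these counts was not tested.

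**Figure D4:**
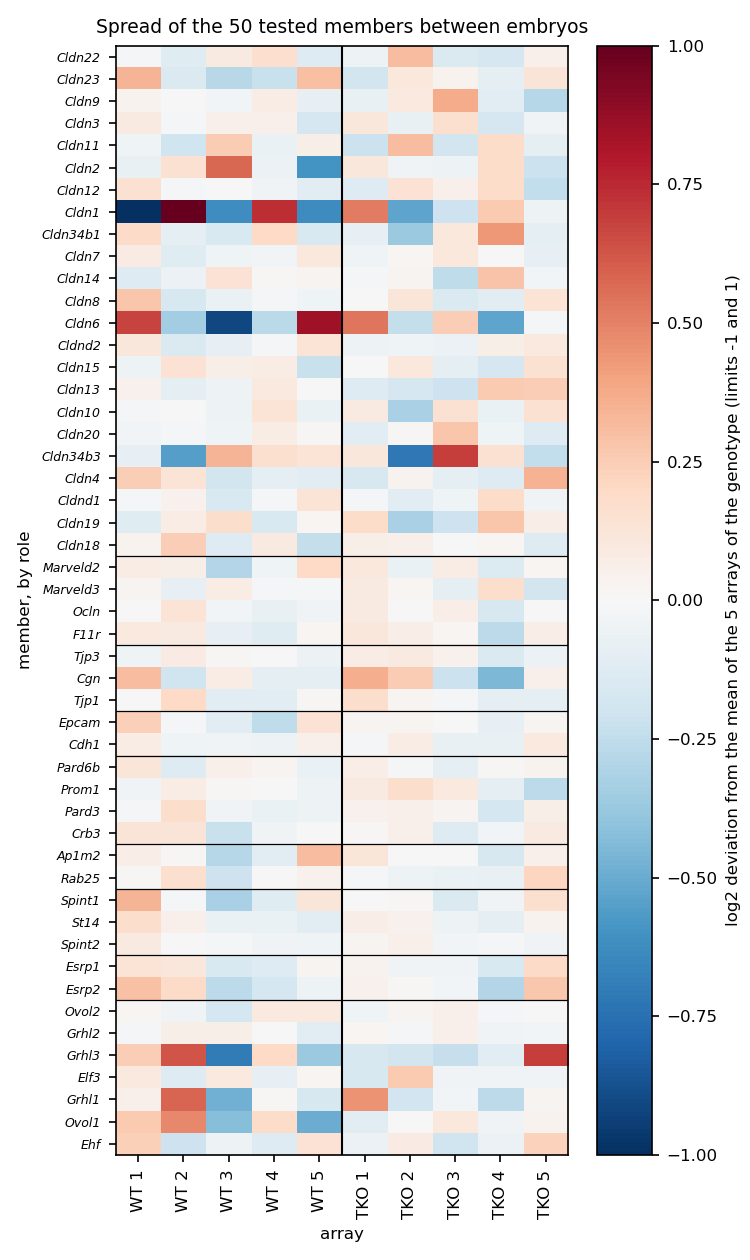
Deviation of each of the 50 tested members from the mean of its genotype (log2, colour scale that ends at -1 and 1) in each of the 10 arrays, with members grouped by role down the vertical axis. Cldn1 is high in WT 2 and WT 4, Cldn6 in WT 1 and WT 5, and Grhl3 in WT 2 and TKO 5.

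In the neighbouring parts of the junction, the desmosome genes below included, 1 gene of each list was called, where 5.51% of all tested genes were called. Of 20 other tight junction genes 1 passed, Magi3, a plaque scaffold, higher by 0.51 (SE 0.098, adjusted p = 0.0118 in limma). Of 17 other polarity genes 1 passed, Scrib, the basolateral scaffold, higher by 0.37 (SE 0.065, 0.00755) with every TKO array (8.07 to 8.25) above every WT array (7.74 to 7.90). Of 13 adherens junction genes 1 passed, Plekha7, which anchors microtubules at that junction, higher by 0.40 (SE 0.097, 0.0337). The medians of these 3 lists were -0.066, -0.050 and -0.079.

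The 12 desmosome genes had a median difference of -0.30, with 9 negative and 3 positive. The one that passed went the other way: Pkp2, a plaque protein of simple epithelia and heart, was higher by 0.30 (SE 0.076, adjusted p = 0.0416 in limma). Ppl, which encodes periplakin of cornifying epithelia, read 8.27, 9.27, 8.16, 9.06 and 8.17 in WT 1 to 5 and 8.11, 7.62, 7.33, 7.75 and 8.12 in TKO 1 to 5, a difference of -0.74 (adjusted p = 0.122). WT 2 and WT 4 were its highest arrays, as for Cldn1 and Krt10.

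None of 19 other epithelial identity genes passed the test in limma, with 3 at an unadjusted p under 0.05 (beside 20.9% of all genes) and a median of 0.031. Muc1, a membrane mucin, had a difference of 0.49 (adjusted p = 0.0700), and Lgals3, galectin-3, had 0.38 (0.0904). Every TKO array of Lgals3 (9.57 to 9.81) lay above every WT array (8.90 to 9.47). None of the 10 repressors and mesenchymal transition genes passed either, with 2 at an unadjusted p under 0.05 and a median of -0.15. Vim had a difference of -0.36 (adjusted p = 0.0510) and Cdh11 of -0.53 (0.0984). Zeb1, a target of Ovol2, had a difference of -0.22 (0.365).

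Some markers of the epithelium's own cell types passed the test. Among 11 multiciliated cell markers, Ccno (0.76, adjusted p = 0.000848 in limma), Deup1 (0.50, 0.00620) and Mcidas (0.55, 0.00724), all of the centriole amplification step, were higher, and Cfap43 (-0.55, 0.0240), an axonemal gene, was lower. At an unadjusted p under 0.05 in limma were 8 of the 11, beside 20.9% of all genes. Of the 11 differences 4 were positive and 7 negative. The summed level of the list, in which bright genes weigh most, was 13.40 to 13.64 in WT and 13.53 to 13.70 in TKO. Of 7 basal cell markers Ngfr was lower (-0.39, 0.0418), and 3 were at an unadjusted p under 0.05. Their summed level was 12.13 to 12.70 in WT and 11.84 to 12.71 in TKO.

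Most markers of tissue under the epithelium that were tested had negative differences. The 9 olfactory neuron markers, which are not of that tissue, are given beside them. They had 6 positive and 3 negative differences (median 0.19). Tek (endothelium), Matn1 (cartilage), Ptprc (leukocytes) and Cdh19 (glia) lay below the filter. All 12 mesenchyme markers had negative differences (median -0.39), of which Col3a1 (-0.48, adjusted p = 0.0234 in limma) passed, with summed levels of 11.34 to 13.20 in WT and 11.10 to 13.24 in TKO. Tie1 (-0.39, 0.0400) passed among 11 endothelium markers, whose sums were 9.26 to 9.59 and 8.99 to 9.43. Tnnt3 (-1.01, 0.0302) passed among 9 skeletal muscle markers, whose median was -1.01 and whose sums were 8.70 to 10.84 and 8.57 to 9.87. At an unadjusted p under 0.05 in limma were 5 of the 12 mesenchyme, 3 of the 11 endothelium and 8 of the 9 skeletal muscle markers, beside 20.9% of all genes. None of the 9 cartilage and bone, 9 leukocyte, 6 glia or 9 olfactory neuron markers passed in limma, with 1, 1, 1 and 0 at an unadjusted p under 0.05. The smallest p-values belonged to Hapln1 (0.38, adjusted p = 0.218) and Col11a2 (-0.34, 0.288), to Cd52 (-0.37, 0.09) and Itgam (-0.37, 0.260), to S100b (-0.68, 0.0757) and Erbb3 (-0.23, 0.239), and to Neurod1 (-0.51, 0.302) and Cnga2 (0.27, 0.674). The sums of the 4 lists were 9.48 to 10.97 and 9.42 to 10.99, 8.79 to 9.71 and 8.76 to 9.93, 9.19 to 9.87 and 8.91 to 9.53, and 8.94 to 11.59 and 8.82 to 10.79 in WT and TKO.

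A non-epithelial score was the mean of values centred per gene over the mesenchyme, endothelium, skeletal muscle, cartilage and bone, leukocyte and glia lists. The olfactory neuron list was not in it. Erbb3, in the glia list, also stands among the other epithelial identity genes. The score averaged 0.0887 in WT (-0.402 to 0.387) and -0.0887 in TKO (-0.487 to 0.188). The groups overlapped (exact two-sided permutation p = 0.365, with sex not taken into account). Its part in the Ovol2 and Cldn22 differences beyond the fits given above was not tested.

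The genotype difference was also compared between the sexes. An interaction term in limma passed in 1 of 16635 genes and in 0 of the 50 members, with 5 members and 705 genes at an unadjusted p under 0.05. It rests on the single WT male. None of the members lies within 5 Mb of a deleted microRNA locus.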

How the data were processed

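The authors deposited log2 expression values that were made with RMA (Affymetrix Expression Console, per the submitters' processing notes); RMA brings arrays to a common distribution, so a shift shared by all genes is removed. That the scale is log2 was inferred from their range, 1.5 to 13.7. Not given in the sources used here are the array's genome build, the program's version and the summary level. No detection call is used.

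Of 41345 probe sets, 23521 had 1 symbol, 1814 several (3 of them naming a member, not used) and 16010 none. Each gene took its probe set of highest mean, and genes below the 25th percentile (4.58) were not tested. The comparison used R 4.3.3 and limma 3.58.1 (labelled sex plus genotype, intensity trend, two-sided, Benjamini-Hochberg over 16635 genes, threshold 0.05), beside exact permutation of 252 assignments. The code was tested on simulated data. Figures used matplotlib 3.10.9.

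The members and lists were chosen with earlier results of these data known, so lists are described by counts and medians only. Array values are printed for called members, for the 4 largest differences each way, for the 2 smallest p-values of each role, and for Cdh1, Epcam, Cldn1, Cldn3, Cldn4 and Cldn7; Pard3 was added after its values were seen. Of other lists, called genes (at most 3) or else the 2 with the smallest p are named; Ppl, Zeb1, Krt8 and Krt18 were added. A summed level is log2 of the summed linear values. RefSeq tables gave sequences; the 59 members matched by Entrez ID, 44 have a promoter window, and genes may have several windows. Alternatives covered the model, filter, normalization, probe set rule, sex, non-epithelial score and each array left out.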

Additional observations from a re-analysis of the deposited data

Results flagged for a closer look

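Within a genotype, 6 of 100 groups of 5 arrays had 1 array standing apart from the other 4 by Dixon's criterion, where chance gives about 1 in 20. TKO 4 was the low array in 3 of them: F11r (9.22, next 9.51), Epcam (8.60, next 8.68) and Pard3 (7.84, next 8.05). WT 2 was the high array for Pard3 (8.33, next 8.13). TKO 5 was the high array for Rab25 (9.16, next 8.93) and for Grhl3 (7.58, next 6.78). For Epcam the gap is small because the other TKO arrays lay very close together. TKO 4 was also the array in which the fewest members lay above the mean of their genotype, 15 of 50.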

How the results depend on the processing

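Over 22 alternative settings no named value changed direction while called, and 36 of the 50 tested members kept their sign in every setting; the 14 that did not had differences of at most 0.145 in size. In all, 6 members were called in at least 1 setting. Members lower in TKO numbered 3 without sex in the model, 3 after quantile normalization and 2 after median centring, and 0 with a filter at the 50th percentile (which leaves out Cldn22), in females only and with the non-epithelial score in the model. Members higher in TKO numbered 2 with a replicate block, with the 50th percentile filter, with robust variances and with array weights, and 0 in females only and with that score. All changed genes numbered 56 in females only and 90 with that score; the cause was not tested, though the first has fewer arrays. Leaving out 1 array gave 210 to 1284 changed genes, 0 to 2 members higher and 0 to 3 lower. The lowest counts were without WT 3, the only WT male, where the genotype difference comes from the females alone. Without TKO 3, 0 members were lower too. The replicate block gave 1053 changed genes and 2 members higher, but same-numbered embryos deviated together only for number 4 (correlations -0.127 to 0.379). The labels do not say whether the numbers pair embryos. These correlations cannot settle it, since same-numbered embryos also differ in sex for every number except 1, number 4 included. The number of arrays, 5 a genotype, limits the precision.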
